A study of Mus musculus with 7 samples.

Results

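BRCA1-null mammary tumors were compared with Neu mammary tumors through the RNA of their sorted tumor cells, over 4 of the 7 single-cell libraries of the series. The mice of both tumor models were labelled FVB/NJ, and each library came from 1 untreated, spontaneous tumor of an adult animal taken at a size near 1000 mm3, with 2 tumors (replicates A and B) per model. BRCA1-null tumors arose in mice with K14-Cre and floxed (F/F) alleles of both Brca1 and Trp53. There the keratin 14 promoter drives the recombinase, which deletes both tumor suppressors in keratin 14-expressing epithelial cells, so that loss of Brca1 and loss of Trp53 cannot be told apart. Neu tumors arose in MMTV-Neu mice, in which a mammary tumor virus promoter drives the rat Neu (Erbb2) receptor. The MMTV-Neu line had been crossed to mice with floxed FIP200 (Rb1cc1) alleles according to the methods of the study, and the tumor of Neu replicate A carried these alleles without a recombinase. The age of the mice was not given in the sources used here. Cells were dissociated, sorted as CD24+ and free of the endothelial, leukocyte and erythroid surface markers CD31, CD45 and Ter119, and run on the 10x Chromium platform, which reads transcript 3' ends and gives each captured molecule a unique molecular identifier (UMI), so that copies made by amplification count once. Barcodes with at least 1000 UMIs, at least 500 genes and under 20% mitochondrial UMIs were taken as cells, which kept 6628 of 7669 barcodes. Their UMIs were summed per library, since the tumor and not the cell is the replicate.

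The mammary gland holds a basal layer of contractile myoepithelial cells, which surrounds luminal cells. Luminal cells divide into a hormone-sensing lineage, which carries the estrogen and progesterone receptors, and an alveolar lineage, which makes milk when prolactin activates the transcription factor STAT5. Tumors that lack BRCA1 are known for basal-like features, whereas MMTV-driven Neu tumors are known for luminal ones. Epithelial-mesenchymal transition (EMT) is the program by which epithelial cells lose junctions and gain matrix and cytoskeletal proteins of mesenchymal cells.

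BRCA1-null replicate A stood apart from the other libraries in size and content. It held 245 cells and 5578911 UMIs, against 2078 cells and 29522988 UMIs in BRCA1-null replicate B, 2308 cells and 22126786 UMIs in Neu replicate A and 1997 cells and 33661546 UMIs in Neu replicate B. Median UMIs per cell were 18273, 11970, 8609 and 15642 in the same order, and median mitochondrial shares lay between 3.48% and 4.63%. Of all barcodes, 28 sequences occurred in more than 1 library, and 20 did so among the cells kept. Cells with at least 2 UMIs of Epcam or of a keratin made up 90.2% and 97.4% of the BRCA1-null libraries and 99.7% and 99.9% of the Neu libraries. In log2 CPM across 13689 genes, which are not independent replicates, the 2 Neu libraries correlated at r = 0.972, the 2 BRCA1-null libraries at r = 0.899, and libraries of different models at 0.742 (replicates A) and 0.747 (replicates B). CPM are UMIs per 1000000 after scaling of library totals by the trimmed mean of M-values (TMM).

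In all, 1798 genes were higher and 1230 lower in BRCA1-null than in Neu tumors among 13689 genes tested (13.1% and 8.99%, together 22.1%; edgeR quasi-likelihood test, Benjamini-Hochberg adjusted p under 0.05, two-sided). All adjusted p-values below come from that fit. Each of the 1798 and 1230 genes had the same direction in the A libraries alone and in the B libraries alone, against 78.3% of all genes tested. The genes were called from these same libraries, so the shared direction is no separate support, here or with a library left out. The median log2 fold change over all genes was 0.10. Genes whose 2 BRCA1-null libraries both lay above or both below the 2 Neu libraries were far more frequent, at 35.4% and 32.5% of genes tested, so the lack of overlap by itself is common here. The counts depended on which libraries entered. Without Neu replicate A, 316 genes were higher and 206 lower, and without Neu replicate B none passed (edgeR; 1737 and 1267 at an unadjusted p under 0.05), though every gene of the full fit that was still measured kept its direction. DESeq2 called 2382 and 1716 genes, and leaving out BRCA1-null replicate A gave 2716 and 1899.

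**Figure D1:**
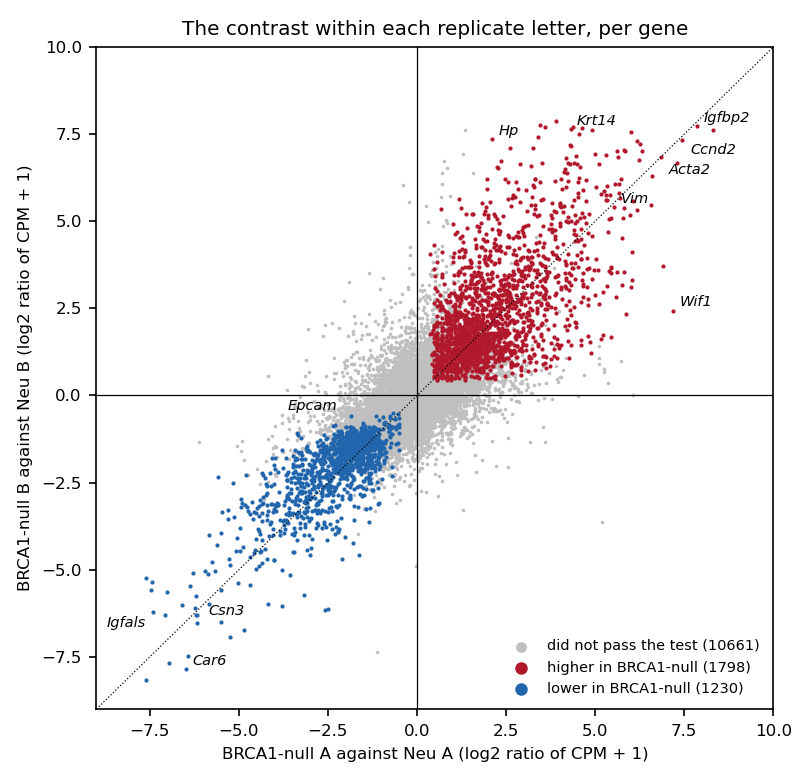
Each point is a gene, placed by the log2 ratio of CPM + 1 of BRCA1-null to Neu in the replicate A libraries (x axis) and in the replicate B libraries (y axis), and colored by the edgeR call. The 1798 higher and 1230 lower genes lie in the quadrants where both ratios have the same sign, while Wif1 is high mainly in replicate A and Hp and Krt14 mainly in replicate B.

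The genes altered in or driving the models did not pass the test, apart from Krt14. Brca1 and Erbb2 passed in some alternatives, and Trp53 passed without BRCA1-null replicate A. Brca1, which is needed for repair of DNA breaks by homologous recombination, was at 8.37 and 2.83 CPM in BRCA1-null and 1.18 and 1.02 CPM in Neu replicates A and B (log2 fold change 2.31, SE 0.69, adjusted p = 0.0631). Its level was thus not lower in the libraries labelled BRCA1-null. Reads of this chemistry come from the 3' end of a transcript, so a floxed internal exon need not lower the count and the label was not checked by it. Trp53, the p53 tumor suppressor, was at 33.8 and 25.3 CPM in BRCA1-null and 48.9 and 50.9 CPM in Neu, with both BRCA1-null libraries lower (adjusted p = 0.137). Mouse Erbb2 was at 2.79 and 10.3 CPM and 25.9 and 22.4 CPM (adjusted p = 0.0867), and how far reads of the rat transgene enter this count was not measured. In DESeq2 Brca1 was higher (adjusted p = 0.0239) and Erbb2 lower (adjusted p = 0.0281). In edgeR Brca1 was also higher without BRCA1-null replicate B (adjusted p = 0.0173), with libraries thinned to equal totals (0.0378) and without a filter on low counts (0.0108). Erbb2 was also lower without BRCA1-null replicate A (adjusted p = 0.0350), without BRCA1-null replicate B (0.00981) and without the filter (0.000735). Rb1cc1 overlapped between models, at 29.6 and 61.3 CPM and 33.6 and 51.2 CPM. Cd24a, the sorting marker, was present throughout, at 364 and 398 CPM in BRCA1-null and 574 and 493 CPM in Neu (adjusted p = 0.287).

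Milk proteins had the lowest median of the gene lists. Of 17 milk protein genes tested, 9 fell and 1 rose in BRCA1-null tumors (median log2 fold change -3.65, against 0.10 over all genes). Summed over the list, the level was 3831 and 6758 CPM in BRCA1-null and 92299.9 and 124688 CPM in Neu. The caseins Csn1s1, Csn2, Csn1s2a, Csn1s2b and Csn3 lie in this order on chromosome 5, between 87666208 and 87932665 of GRCm38. The bases before 3 starts of this list that hold the STAT5 motif, TTCNNNGAA, are shown in lower case from RefSeq (GRCm38.p6), on the strand of the gene, with the motif in capitals.
Csn1s1, chr5:87666082-87666141, plus strand: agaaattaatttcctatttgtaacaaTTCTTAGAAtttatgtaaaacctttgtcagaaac
Csn2, chr5:87699485-87699544, minus strand: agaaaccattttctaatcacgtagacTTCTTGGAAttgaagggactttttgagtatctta
Glycam1, chr15:103565193-103565252, minus strand: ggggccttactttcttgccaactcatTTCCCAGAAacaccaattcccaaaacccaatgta
Of 15 milk protein genes with a promoter in the RefSeq table, these 3 (20.0%) held the motif on either strand in the 250 bases before the start, against 7.18% of 27025 promoters, 1 per gene. A match is a description of the letters and not of binding.

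Csn3, which encodes kappa-casein, was the most abundant casein, at 415 and 481 CPM in BRCA1-null and 30953 and 37967 CPM in Neu (log2 fold change -6.26, SE 0.49, adjusted p = 0.00670). Csn1s1, an alpha-casein, was at 59.1 and 204 CPM against 10716 and 9743 CPM (log2 fold change -6.28, SE 0.77, adjusted p = 0.00909). Lalba, the regulatory subunit of lactose synthase, was at 35.4 and 135 CPM against 6346 and 5577 CPM (log2 fold change -6.13, SE 0.80, adjusted p = 0.0104). In all 3 genes the Neu libraries lay close together and far above both BRCA1-null libraries. Csn1s2a (-5.78), Csn1s2b (-7.55), the whey acidic protein relative Wfdc18 (1005 and 1936 CPM against 24065 and 44051 CPM, -4.53), Muc15 (-3.65), Lao1 (-3.75) and Lcn2 (-3.06) were the other members that fell, and Spp1, the secreted matrix protein osteopontin, was the member that rose, from 119.9 and 53.6 CPM in Neu to 316 and 1529.7 CPM in BRCA1-null (log2 fold change 3.41, SE 0.86, adjusted p = 0.0406). Csn2 and Glycam1, each with a STAT5 motif, did not pass. Csn2 was at 113 and 2317 CPM in Neu replicates A and B, so the spread within Neu was wide, and Glycam1 at 0.501 and 39.97 CPM. In cells thinned to 3000 UMIs, Csn3 was detected in 99.8% and 99.9% of Neu cells and 64.9% and 55.4% of BRCA1-null cells. In BRCA1-null cells without 2 UMIs of Epcam or a keratin the share was 66.7% (10 of 15 cells) in replicate A and 48.5% (16 of 33) in replicate B, against 64.7% and 55.6% of the other cells, before thinning at median depths of 7415 and 4342 UMIs against 22086 and 12963. This comparison cannot tell expression by a BRCA1-null cell from free RNA, and the part of free RNA was not tested. The few cells without 2 UMIs of Epcam or a keratin are no empty reference. Ccnd2, described below, was found in 46.7% and 63.6% of them in replicates A and B, against 46.4% and 39.5% of the other cells. Lalba was found in 94.9% and 92.7% of Neu and 8.56% and 9.26% of BRCA1-null cells. Without Neu replicate A or with the replicate block no milk protein gene rose, while 9 and 11 fell, and without Neu replicate B none passed.

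Regulators of the alveolar lineage fell with the milk proteins. Of 18 genes of prolactin signaling and alveolar fate, 9 fell and none rose (median log2 fold change -1.90). Aqp5, a water channel of secretory epithelium, was at 242 and 152 CPM in BRCA1-null and 7939 and 6394 CPM in Neu (log2 fold change -5.19, SE 0.47, adjusted p = 0.00697). Tspan8, a tetraspanin of luminal cells, was at 7.91 and 11.7 CPM against 659.6 and 686 CPM (log2 fold change -6.09, SE 0.41, adjusted p = 0.00640), and was found in 4.05% and 3.47% of BRCA1-null and 82.6% and 79.3% of Neu cells. Socs2, a feedback inhibitor induced by STAT5, was at 57.7 and 65.6 CPM against 1333 and 1147 CPM (log2 fold change -4.33, SE 0.35, adjusted p = 0.00670). The models did not overlap in any of these 3 genes. The prolactin receptor Prlr was at 22 and 15.3 CPM against 57.5 and 51.4 CPM (adjusted p = 0.0296). Stat5a was at 17.2 and 10.7 CPM against 45.4 and 63.2 CPM (adjusted p = 0.0250) and Stat5b at 5.12 and 5.05 CPM against 17.6 and 18.6 CPM (adjusted p = 0.0236). Gata3, a transcription factor of luminal fate, was at 8.84 and 26 CPM against 181 and 292 CPM (log2 fold change -3.75, SE 0.62, adjusted p = 0.0166). Cited4 (-2.78) and Erbb4 (0 and 0.205 CPM against 5.83 and 4.75 CPM) completed the members that fell. Elf5, which drives alveolar differentiation, did not pass, at 5.43 and 41.4 CPM in BRCA1-null and 115 and 100.5 CPM in Neu (adjusted p = 0.123). Both BRCA1-null libraries were below Neu in it, replicate A far more than replicate B. With Neu replicate A left out, 5 of the 18 genes fell, and 0 without Neu replicate B.

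Genes of lipid uptake and milk fat were lower in part. Of 28 tested, 8 fell and 1 rose (median log2 fold change -0.95). Cd36, a fatty acid transporter, was at 0.930 and 1.74 CPM in BRCA1-null and 239 and 562 CPM in Neu (log2 fold change -8.13, SE 0.70, adjusted p = 0.00697), among the 10 largest decreases at 50 CPM or more. Xdh, the xanthine dehydrogenase that takes part in milk fat secretion, was at 5.43 and 7.92 CPM against 115 and 144 CPM (log2 fold change -4.26, SE 0.38, adjusted p = 0.00697), and Acsl4, which activates long-chain fatty acids, at 18.6 and 20.2 CPM against 320.2 and 303 CPM (log2 fold change -4.0, SE 0.32, adjusted p = 0.00670). Scd1 (-4.55), Srebf1 (-4.27), Me1 (-3.82), Aldoc (-5.00) and Btn1a1 (-3.36) also fell. Lpl, which releases fatty acids from circulating lipids, went the other way, at 19.5 and 75.5 CPM against 1.09 and 1.05 CPM (log2 fold change 5.47, SE 0.78, adjusted p = 0.0122). The enzymes of fatty acid synthesis did not pass, with Fasn at 17.1 and 22.5 CPM against 54.9 and 36.9 CPM and Acaca at 15 and 9.56 CPM against 19.3 and 12.4 CPM. Counts moved with the libraries used, to 3 higher and 12 lower without BRCA1-null replicate A, 2 and 13 without BRCA1-null replicate B, 0 and 6 without Neu replicate A, none without Neu replicate B, and 3 and 13 in DESeq2.

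**Figure D2:**
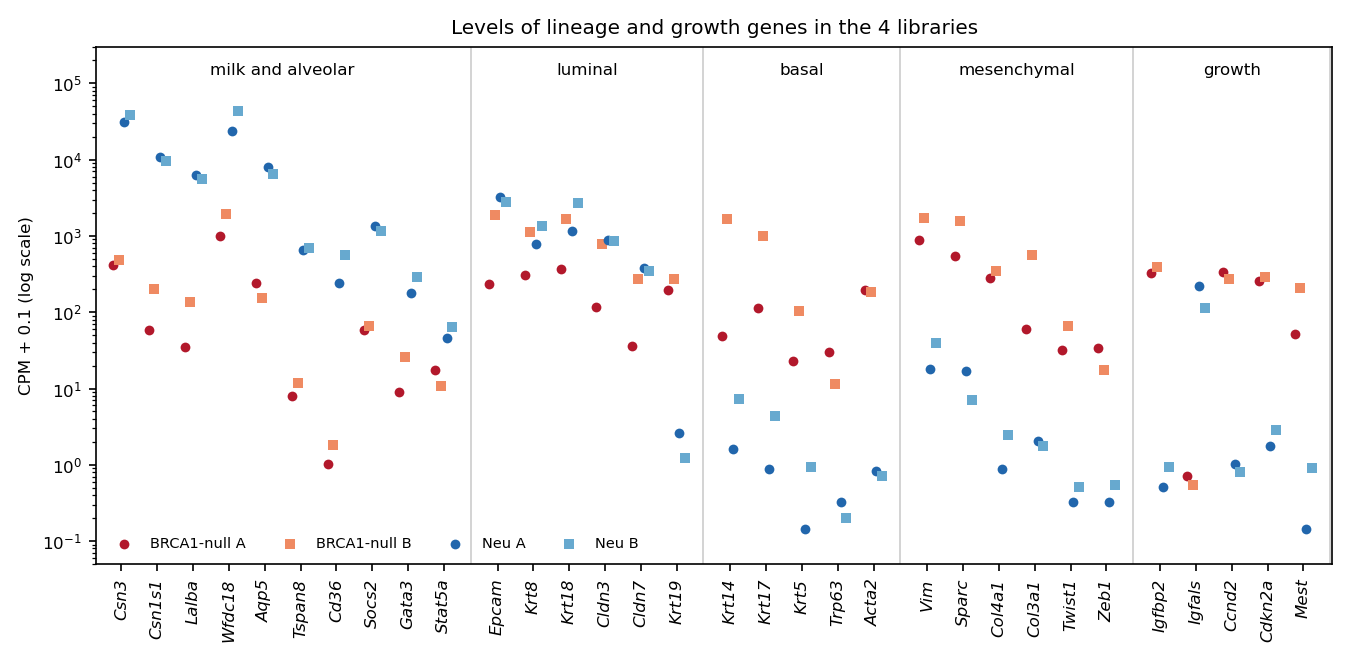
Points show CPM + 0.1 on a log axis for each of the 4 libraries, by gene and gene group (red and orange, BRCA1-null replicates A and B; dark and light blue, Neu replicates A and B). Milk and alveolar genes lie higher in both Neu libraries, basal and mesenchymal genes higher in both BRCA1-null libraries, and Epcam, Krt8, Krt18, Cldn3 and Cldn7 are low mainly in BRCA1-null replicate A.

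Epithelial junction genes differed less, and mainly through BRCA1-null replicate A. Of 28 tested, 6 fell and none rose (median log2 fold change -0.95), and the median log2 ratio was -2.45 in the A libraries and -0.46 in the B libraries. The members that fell were the claudins Cldn8 (-3.83) and Cldn10 (-3.77), the tight junction proteins Marveld2 (-2.53) and Marveld3 (-3.52), and the protease inhibitors Spint1 (-2.32) and Spint2 (-2.66). Cldn10 was at 24 and 30.5 CPM in BRCA1-null and 270.3 and 477 CPM in Neu, with no overlap (SE 0.43, adjusted p = 0.00841). Epcam, an adhesion molecule of epithelial cells, was at 233 and 1903 CPM against 3263 and 2787 CPM (log2 fold change -1.5, SE 0.90, adjusted p = 0.275). Only BRCA1-null replicate A was far below the rest. Cldn3 gave the same picture, at 116 and 773 CPM against 876 and 866 CPM (adjusted p = 0.426), and Cldn4 was at 62.8 and 263 CPM against 206 and 413 CPM (adjusted p = 0.389). E-cadherin (Cdh1) was at 21.7 and 44.4 CPM against 45 and 57.6 CPM (adjusted p = 0.330). DESeq2 called 10 lower and 1 higher. Without BRCA1-null replicate A, 10 of 28 fell and 1 rose, with a median of -0.27. Without BRCA1-null replicate B, 20 fell, among them Epcam (adjusted p = 0.00766) and Cldn3 (adjusted p = 0.00844). When Neu replicate A was left out, 1 fell, and without Neu replicate B none.

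Snail and Zeb factors are known to bind the E-box CACCTG of epithelial promoters, and this motif is shown in capitals, on either strand, in windows before the starts of Epcam, Cldn6, Cldn4 and Spint2 (RefSeq, GRCm38.p6), of which Spint2 fell.
Epcam, chr17:87635765-87635824, plus strand: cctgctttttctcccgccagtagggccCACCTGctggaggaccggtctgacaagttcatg
Cldn6, chr17:23679245-23679304, plus strand: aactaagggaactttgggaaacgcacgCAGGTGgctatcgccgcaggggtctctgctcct
Cldn4, chr5:134946935-134946994, minus strand: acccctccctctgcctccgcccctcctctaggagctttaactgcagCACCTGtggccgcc
Spint2, chr7:29282019-29282078, minus strand: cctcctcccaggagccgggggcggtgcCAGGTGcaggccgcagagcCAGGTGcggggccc
The motif occurred on either strand of the 250 bases before the start in 7 of 18 junction genes with a promoter in the table (38.9%), against 17.1% of all promoters, 1 per gene.

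Luminal keratins did not move as a group. Krt8 was at 308 and 1131 CPM in BRCA1-null and 794 and 1335 CPM in Neu (adjusted p = 0.563) and Krt18 at 367 and 1659 CPM against 1152 and 2670.1 CPM (adjusted p = 0.430), with the libraries overlapping in both. Krt7 did not pass either (50.6 and 57.6 CPM against 25.9 and 43.4 CPM). Krt19, a keratin of luminal and simple epithelia, rose, at 195 and 276 CPM in BRCA1-null and 2.51 and 1.12 CPM in Neu (log2 fold change 7.03, SE 0.58, adjusted p = 0.00670), with no overlap. Krt8 and Krt18 fell in the fit without BRCA1-null replicate B (adjusted p = 0.0443 and 0.0489). Of the luminal progenitor list, 2 of 18 genes rose and 2 fell, a share near that of all genes, and 6 fell without BRCA1-null replicate B, 1 rose and 1 fell without Neu replicate A and none passed without Neu replicate B. Aldh1a3, a retinaldehyde dehydrogenase, rose (15.2 and 32.8 CPM against 1.5 and 1.87 CPM, adjusted p = 0.0119), as did Tnfaip2 (3.87), whereas the receptor tyrosine kinase Kit fell (18.8 and 16.1 CPM against 41.7 and 59 CPM, adjusted p = 0.0308) together with Tspan8. Cd14, a co-receptor of innate immune signaling, was at 70.1 and 169 CPM against 236 and 255 CPM (log2 fold change -1.04, SE 0.47, adjusted p = 0.161) and was found in 20.7% and 19.1% of BRCA1-null and 28% and 30.4% of Neu cells at 3000 UMIs. Its companions Osmr (-0.99), Bcl3 (-0.58), Nfkbia (0.35) and Tnfrsf12a (0.77) did not pass.

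Most genes of the basal, myoepithelial layer were higher in BRCA1-null tumors. Of 17 list genes tested, 12 rose and none fell (median log2 fold change 6.60, or 6.57 with a gene at 0 in Neu held at its lower bound). Summed over the list, the level was 669 and 4095 CPM in BRCA1-null and 1282 and 956 CPM in Neu. BRCA1-null replicate A thus lay below both Neu libraries in the sum. Most of the Neu sums came from Igfbp5, which did not pass. It was at 102 and 510 CPM in BRCA1-null and 1162 and 806 CPM in Neu. Krt14, the keratin whose promoter drives the recombinase, was at 48.8 and 1647 CPM in BRCA1-null and 1.5 and 7.23 CPM in Neu (log2 fold change 7.59, SE 1.90, adjusted p = 0.0406). The 2 BRCA1-null tumors were far apart in it, and in cells thinned to 3000 UMIs it was found in 7.21% (95% interval 4.18 to 11.4) of replicate A and 58.3% (95% interval 56.1 to 60.6) of replicate B, against 0.627% and 1.8% of Neu cells. Krt17 was at 114 and 994 CPM against 0.775 and 4.24 CPM (log2 fold change 7.77, SE 1.48, adjusted p = 0.0220) and Krt5 at 23 and 102 CPM against 0.0456 and 0.848 CPM (log2 fold change 7.05, SE 1.30, adjusted p = 0.0210). Trp63, the transcription factor of the basal layer, was at 29.8 and 11.5 CPM against 0.228 and 0.102 CPM (log2 fold change 6.96, SE 0.79, adjusted p = 0.00841), higher in the replicate with less keratin. Col17a1, a hemidesmosome collagen, had no UMI in either Neu library and was at 1.24 and 16.8 CPM in BRCA1-null, at least 75.5-fold above the mean level that 3 UMIs would give per Neu library. Itga6 and Itgb4, the integrin subunits of hemidesmosomes, did not pass (69.6 and 65.8 against 78.2 and 92.8 CPM, and 6.36 and 35.7 against 19.4 and 34.6 CPM). In a fit without Neu replicate A, 3 of the 17 genes rose, without BRCA1-null replicate B 10 rose and 2 fell, and without Neu replicate B none passed.

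Contractile genes were split, with 8 of 15 higher and 1 lower (median log2 fold change 1.86). Acta2, smooth muscle actin, was at 197 and 184 CPM in BRCA1-null and 0.729 and 0.611 CPM in Neu (log2 fold change 8.15, SE 0.40, adjusted p = 0.00640), and was found in 19.4% and 19.4% of BRCA1-null and 0.193% and 0.154% of Neu cells. Tpm2, a tropomyosin, was at 107 and 132 CPM against 2.01 and 1.42 CPM (log2 fold change 6.12, SE 0.41, adjusted p = 0.00640), and Actg2, another smooth muscle actin, at 12.6 and 28.5 CPM against 0.0456 and 0.0679 CPM (adjusted p = 0.00697). In these 3 genes both BRCA1-null tumors were high, and Acta2 and Tpm2 were close between them, unlike Krt14. Lmod1, an actin nucleator of smooth muscle, went the other way, at 4.19 and 3.52 CPM against 28.4 and 45.3 CPM (log2 fold change -3.27, SE 0.42, adjusted p = 0.0101). Tpm1, Cald1, Smtn and Mylk did not pass. Serum response factor binds a CArG box in the promoters of many contractile genes, and this box was found on either strand of the 250 bases before the start of 3 of 13 list members in the table (23.1%, against 1.40% of all promoters, 1 per gene). They are shown from the same table with the box in capitals, and of the 3 genes Cnn2 and Myl9 rose while Vcl did not pass.
Cnn2, chr10:79988519-79988578, plus strand: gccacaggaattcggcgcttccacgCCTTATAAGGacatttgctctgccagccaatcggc
Myl9, chr2:156775278-156775337, plus strand: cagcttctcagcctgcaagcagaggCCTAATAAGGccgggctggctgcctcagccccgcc
Vcl, chr14:20929148-20929207, plus strand: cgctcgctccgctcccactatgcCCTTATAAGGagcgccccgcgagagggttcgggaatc
Cnn2, which encodes calponin 2, was at 49.9 and 93.6 CPM against 13.6 and 3.94 CPM (3.04), Myl9, a myosin regulatory light chain, at 43.6 and 63.5 CPM against 2.87 and 0.305 CPM (5.10), and Vcl, the adhesion protein vinculin, at 25 and 58.9 CPM against 17.5 and 21.6 CPM (1.10). Without Neu replicate A, 5 of the 15 contractile genes rose and 1 fell, and none passed without Neu replicate B.

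All 26 mesenchymal and matrix genes tested rose in BRCA1-null tumors, with a median log2 fold change of 7.10. Their summed level was 3030.0 and 8281 CPM in BRCA1-null and 89.6 and 98.9 CPM in Neu. Vim, the intermediate filament vimentin, was at 884 and 1732 CPM against 18.1 and 39.6 CPM (log2 fold change 5.50, SE 0.63, adjusted p = 0.00848). Sparc, a matricellular protein, was at 538 and 1549 CPM against 16.9 and 6.92 CPM (log2 fold change 6.46, SE 0.82, adjusted p = 0.00983). Both tumors of each model were far from those of the other. The basement membrane collagens Col4a1 (278 and 344 CPM against 0.775 and 2.37 CPM, log2 fold change 7.60) and Col4a2 (224 and 313 against 2.01 and 1.9 CPM, 7.10) were alike in the 2 BRCA1-null tumors. The fibrillar collagens were not, with Col3a1 at 60.01 and 554 CPM against 1.96 and 1.66 CPM (7.41), Col1a2 at 77.4 and 485 against 2.14 and 1.39 CPM (7.32) and the proteoglycan Bgn at 48.1 and 519 against 3.05 and 1.49 CPM (6.97). These were several times higher in BRCA1-null replicate B than in replicate A. Lox, which crosslinks collagen, had no UMI in Neu and was at 2.33 and 14.9 CPM in BRCA1-null, at least 72.3-fold above the level of 3 UMIs per library. With Neu replicate A left out, 12 of the 26 passed, and none without Neu replicate B.

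EMT transcription factors were higher too, with 7 of 10 up and none down (median log2 fold change 6.29, or 5.98 with the gene at 0 in Neu at its bound). Twist1 was at 31.6 and 66.6 CPM in BRCA1-null and 0.228 and 0.407 CPM in Neu (log2 fold change 7.23, SE 0.64, adjusted p = 0.00697). Zeb1 was at 34 and 17.1 CPM against 0.228 and 0.441 CPM (log2 fold change 6.20, SE 0.64, adjusted p = 0.00751) and Zeb2 at 10.4 and 25.6 CPM against 0.0456 and 0.102 CPM (log2 fold change 7.78, SE 0.80, adjusted p = 0.00751). All 3 were near 0 in both Neu tumors. Snai2 (6.82 and 13.2 CPM against 0.0911 and 0.136 CPM), Snai3, Prrx1 and Twist2 also rose, the last from no UMI in Neu to 5.43 and 7.55 CPM, at least 54.4-fold. Snai1 (9.15 and 17.2 against 6.15 and 1.05 CPM), Tcf4 (56.6 and 55.5 against 32 and 16.1 CPM) and Yap1, a growth-promoting coactivator (48.4 and 109.6 against 40.8 and 36 CPM, adjusted p = 0.147), did not pass. When Neu replicate A was left out, 6 of the 10 rose, and 0 without Neu replicate B.

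Markers of stromal cells moved with these lists. Of 6 endothelial markers 4 rose, with summed levels of 36.3 and 7.82 CPM in BRCA1-null and 1.69 and 1.8 CPM in Neu, and Cdh5 and Cldn5 were at 0 in Neu. Of 6 pericyte markers 3 rose (Rgs5, Pdgfrb and Higd1b), with sums of 18.5 and 167 CPM against 15.4 and 38.2 CPM, which overlapped. Of 6 fibroblast markers 4 rose (Pdgfra, Dcn, Lum and Col1a1), and 3 of these are also on the matrix list, with sums of 204 and 758 CPM against 15.7 and 3.02 CPM. The endothelial sum was therefore larger in BRCA1-null replicate A, and the pericyte and fibroblast sums in replicate B. All 5 macrophage markers tested rose from sums of 5.29 and 1.9 CPM in Neu to 31.3 and 39.6 CPM, while Ptprc, which encodes the sorted-out marker CD45, was under 1 CPM in each library and at 0 in Neu, and its call was lost with the replicate letter as a block (adjusted p = 0.0601). In a fit without Neu replicate A, none of the endothelial and pericyte markers (with libraries thinned to equal totals, 1 endothelial and 1 macrophage marker), 3 fibroblast and 1 macrophage marker passed, and none without Neu replicate B. None of the 4 lymphocyte markers reached the count filter, with sums of 0.465 and 1.81 CPM in BRCA1-null and 0 and 0.0679 CPM in Neu. Counting only cells with at least 2 UMIs of Epcam or a keratin left 26 mesenchymal genes higher, with a median of 7.09, and 7 EMT genes higher. That measure kept 90.2% and 97.4% of the cells of BRCA1-null replicates A and B, so the sums could change little. A droplet with both kinds of RNA also passes it, and the part of stromal cells in the result was not tested.

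At equal depth, Epcam and Vim were found together in larger shares of cells in both BRCA1-null libraries than in the Neu libraries, a description with no test. Vim was detected in 67.6% and 77.3% of cells of BRCA1-null replicates A and B and in 4.96% and 5.6% of Neu cells. Epcam was detected in 29.7% and 73.5% of BRCA1-null cells and 99.9% and 99.9% of Neu cells. Cells with both made up 15.3% and 51.6% of the BRCA1-null libraries and 4.96% and 5.60% of the Neu libraries. Among cells with Epcam, 51.5% and 70.2% had Vim in BRCA1-null, and 4.97% and 5.60% in Neu. Both BRCA1-null shares were below the 67.6% and 77.3% of all cells of these libraries with Vim. Among cells with Vim, 22.7% and 66.7% had Epcam in BRCA1-null, and 100% in both Neu libraries. The shallower cells left out numbered 23, 177, 233 and 49 in the 4 libraries, and intervals cover counting error only. Doublets were not called, so some cells with both transcripts may hold 2 cells. Because UMIs were summed over cells, a smaller share of cells of one kind and less RNA per cell cannot be told apart in the library levels.

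**Figure D3:**
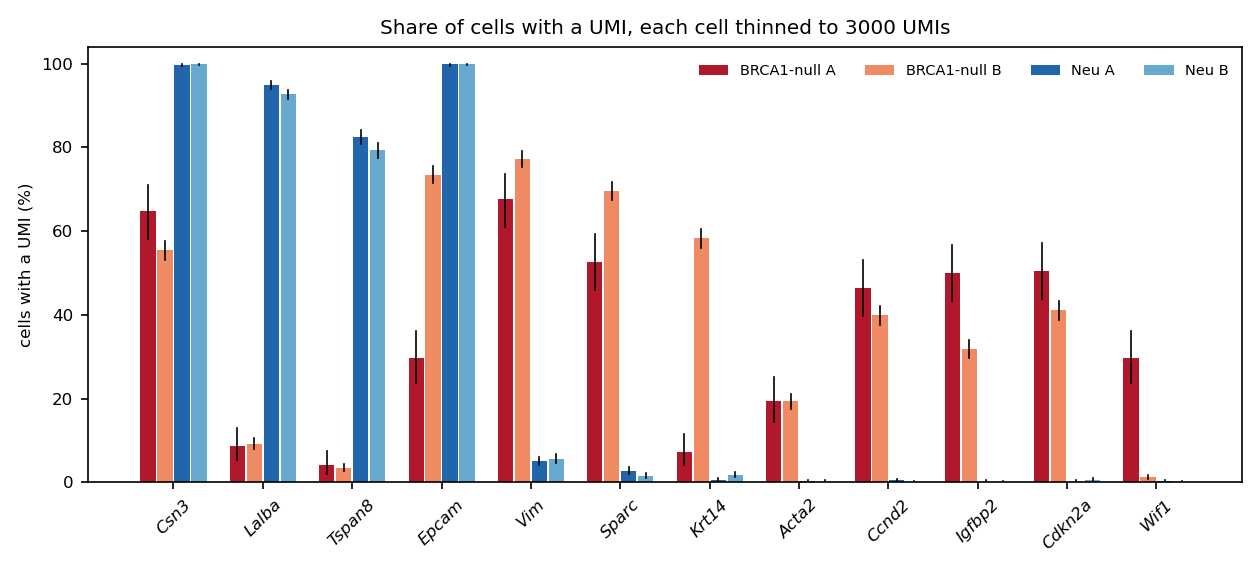
Bars give the share of cells with at least 1 UMI of a gene in each library after thinning each cell to 3000 UMIs, with exact Clopper-Pearson 95% intervals as lines. Csn3, Lalba, Tspan8 and Epcam are most frequent in Neu, Vim, Sparc, Acta2, Ccnd2, Igfbp2 and Cdkn2a in both BRCA1-null libraries, Krt14 in BRCA1-null replicate B, and Wif1 in BRCA1-null replicate A.

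The insulin-like growth factor (IGF) system held both the largest increase and the largest decrease of a set of genes. These passed without overlap, at 50 CPM or more on average in the higher model. Of 14 genes, 6 rose and 1 fell (median log2 fold change 3.11). Igfbp2 (chr1:72824503-72852474), an IGF-binding protein, was at 328 and 391 CPM in BRCA1-null and 0.410 and 0.848 CPM in Neu (log2 fold change 9.12, SE 0.55, adjusted p = 0.00640), and was found in 50.00% and 31.9% of BRCA1-null cells and 0.145% and 0.0513% of Neu cells. Igfals (chr17:24865997-24882010), which binds IGF and Igfbp3 in a ternary complex, was at 0.620 and 0.444 CPM against 219 and 113 CPM (log2 fold change -8.36, SE 0.59, adjusted p = 0.00640). The 2 genes were thus near 0 in opposite models. Igfbp3 (64.2 and 245 CPM against 0.137 and 0.882 CPM, 8.18), Igfbp4 (107 and 181 against 2.14 and 0.814 CPM, 6.62), Igfbp6 (7.19) and Igfbp7 (5.45) rose as well. Igfbp5 did not, at 102 and 510.0 CPM against 1162 and 806 CPM (adjusted p = 0.158). Igf2 had no UMI in Neu and was at 1.24 and 6.08 CPM, at least 30.7-fold, and the receptor Igf1r was at 37.7 and 15.3 CPM against 5.92 and 9.5 CPM (adjusted p = 0.0696). Without Neu replicate A, 5 of the 14 rose and 1 fell, and none passed without Neu replicate B.

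Imprinted genes, which are expressed from 1 parental allele and many of which act in fetal growth, were higher in BRCA1-null tumors in 11 of 18 cases and lower in none (median log2 fold change 5.31, or 4.84 with genes at 0 in Neu at their bound). Mest was at 51.3 and 209 CPM in BRCA1-null and 0.0456 and 0.814 CPM in Neu (log2 fold change 8.15, SE 1.31, adjusted p = 0.0157). Meg3, a long noncoding RNA, was at 45.9 and 81.1 CPM against 0.0911 and 0.509 CPM (log2 fold change 7.63, SE 0.82, adjusted p = 0.00775), and its neighbor Dlk1, a membrane-bound regulator of differentiation, at 9.92 and 91 CPM against 0 and 0.305 CPM (log2 fold change 8.20, SE 1.59, adjusted p = 0.0230). Sgce was at 15.4 and 18.3 against 0.182 and 0.102 CPM (6.87) and Peg3 at 17.5 and 48.9 against 1.59 and 0.916 CPM (4.74). Meg3 and Dlk1 lie on chromosome 12, Mest, Sgce and Peg10 on chromosome 6. H19 (2.02 and 43.8 CPM against 0.0456 and 0.204 CPM) and Nnat (56.1 and 2.39 CPM against 0.319 and 0.0679 CPM) passed, but in opposite replicates of BRCA1-null. Kcnq1ot1 (108 and 97.4 against 105 and 101 CPM), Igf2r, Grb10 and Cdkn1c did not pass. With Neu replicate A left out, 3 of the 18 rose, and 0 without Neu replicate B.

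Among G1 cyclins and inhibitors, 4 of 20 genes rose and 2 fell, shares not far from those of all genes (13.1% and 8.99%). Ccnd2 (chr6:127125162-127152193), which encodes cyclin D2, was at 333 and 277 CPM in BRCA1-null and 0.911 and 0.712 CPM in Neu (log2 fold change 8.55, SE 0.43, adjusted p = 0.00640), while its relatives Ccnd1 (187 and 103 against 204 and 121 CPM, adjusted p = 0.809) and Ccnd3 (33.3 and 59.8 against 52.1 and 52 CPM, adjusted p = 0.787) overlapped between models. At 3000 UMIs Ccnd2 was found in 46.4% (95% interval 39.7 to 53.2) of BRCA1-null replicate A and 39.9% (95% interval 37.7 to 42.1) of replicate B, against 0.482% and 0.103% of Neu cells. Cdkn2a, whose locus encodes the inhibitors p16 and p19ARF, was at 260.4 and 293 CPM against 1.69 and 2.75 CPM (log2 fold change 6.95, SE 0.45, adjusted p = 0.00640), and the adjoining Cdkn2b at 31.2 and 25.5 CPM against 0.957 and 2.21 CPM (log2 fold change 4.15, SE 0.54, adjusted p = 0.0104). Cdk6, a partner of D-type cyclins, rose (25.3 and 47.5 against 3.78 and 1.87 CPM, 3.70). The other kinases and inhibitors of the list, among them Cdk4, Cdkn1b, Cdkn2c and Cdkn2d, did not pass. Rb1, the retinoblastoma protein they act on, fell (5.27 and 4.68 against 14.2 and 14.7 CPM, -1.54), as did its relative Rbl2 (1.4 and 3.45 against 9.8 and 13.2 CPM, -2.18). DESeq2 called 7 higher. When Neu replicate A was left out, 2 rose and 0 fell, and none passed without Neu replicate B.

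DNA replication and mitosis genes were higher in 5 of 32 cases and lower in none, a share of higher genes near that of all genes tested (13.1%), although the list median was 1.53. Hmgb2 (554 and 328 CPM in BRCA1-null, 52.4 and 85.2 CPM in Neu, 2.68), Top2a (2.28), Mcm3 (1.86), Mcm5 (2.11) and Mcm7 (1.57) passed. The proliferation marker Mki67 was at 32.1 and 20.6 CPM against 8.75 and 22.5 CPM (adjusted p = 0.357), Birc5 at 90.9 and 54.8 CPM against 17.1 and 32.3 CPM (adjusted p = 0.0592) and Pcna at 90.4 and 74.6 CPM against 33.4 and 42 CPM (adjusted p = 0.0522). BRCA1-null replicate A had the highest level of each. The median log2 ratio of the list was 2.18 in the A libraries and 0.58 in the B libraries, and without BRCA1-null replicate B 17 of the 32 genes rose. DESeq2 called 16 higher and library totals without TMM gave 10, and without either Neu library none passed.

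Partners of BRCA1 in homologous recombination and other DNA damage genes were higher in 6 of 30 cases, or 4 with the replicate block, and lower in none (median log2 fold change 0.96). The share of higher genes is not far from the 13.1% of all genes. Bard1, the obligate partner of BRCA1, was at 4.5 and 4.68 CPM in BRCA1-null and 1.05 and 1.09 CPM in Neu (log2 fold change 2.10, SE 0.50, adjusted p = 0.0358), and its call was lost with the replicate block (adjusted p = 0.0530). Rbbp8, which encodes the end resection factor CtIP, was at 30.9 and 33.9 CPM against 4.01 and 4.31 CPM (log2 fold change 2.96, SE 0.35, adjusted p = 0.00860), and the nuclease Exo1 at 8.06 and 4.13 CPM against 1.18 and 0.746 CPM (log2 fold change 2.64, SE 0.61, adjusted p = 0.0334). The models did not overlap in any of the 3. Rad51ap1 (1.91), H2afx (1.88) and Mre11a (2.40) also rose. Brca2 (2.79 and 4.1 against 2.51 and 1.9 CPM) and Palb2 did not pass. Of 26 p53 target genes 5 rose and none fell, with 13.1% of all genes higher. These were Gdf15 (10.1 and 15.4 CPM against 0.182 and 0.204 CPM, 6.01), Plk2 (2.57), Phlda3 (414 and 164 CPM against 2.46 and 11.6 CPM, 5.36), Mdm2 (68.2 and 39.7 CPM against 17.6 and 18.5 CPM, 1.58) and Fas (1.29). Cdkn1a, which encodes p21, was at 108 and 236 CPM against 15.7 and 99.7 CPM (adjusted p = 0.239). In a fit without Neu replicate A, 0 of the recombination genes and 2 of the p53 targets passed, and none without Neu replicate B.

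Some receptors and some ligands of the ErbB family differed. Of 14 genes, 4 rose, 3 fell and 7 did not pass (median log2 fold change -0.87). Over all genes tested, 13.1% were higher and 8.99% lower. Erbb3, the partner of the Neu receptor, was at 10.1 and 14.5 CPM in BRCA1-null and 31.9 and 56.8 CPM in Neu (log2 fold change -1.84, adjusted p = 0.0339), and Erbb4 also fell (-5.09). The ligand Egf was at 0.155 and 0.273 CPM against 14.1 and 17.3 CPM (log2 fold change -5.99, SE 0.55, adjusted p = 0.00697). The ligands that rose were Areg (141 and 111 CPM against 2.83 and 13.4 CPM, 3.95), Hbegf (232 and 359 against 45.9 and 22.7 CPM, 3.11), Nrg1 (14.9 and 44.7 against 1.0 and 0.916 CPM, 4.96) and Ereg (6.51 and 10.4 against 0 and 0.0339 CPM, adjusted p = 0.00770). Ligands therefore split, with Egf high in Neu tumors and 4 others in BRCA1-null tumors. Egfr did not pass (3.41 and 14.6 against 16 and 21.7 CPM, adjusted p = 0.316). Without BRCA1-null replicate B 7 fell, without Neu replicate A 2 rose and 1 fell, and without Neu replicate B none passed.

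Hormone-sensing genes were higher in BRCA1-null tumors in 8 of 11 cases, several of them at low levels, and none was lower (median log2 fold change 5.39, or 4.09 with genes at 0 in Neu at their bound). The progesterone receptor Pgr had no UMI in Neu and was at 2.79 and 2.73 CPM in BRCA1-null, at least 23.2-fold. Foxa1, a pioneer factor of the estrogen receptor, was at 2.79 and 9.66 CPM against 0.0456 and 0.0679 CPM (adjusted p = 0.0130), and Cited1, a transcriptional cofactor, at 59.1 and 15.4 CPM against 0.775 and 0.339 CPM (log2 fold change 6.07, SE 0.90, adjusted p = 0.0134). The estrogen receptor Esr1 itself did not pass and was at 2.48 and 1.6 CPM in BRCA1-null and 5.24 and 5.02 CPM in Neu (adjusted p = 0.106). By antibody staining of the proteins, the study described tumors of both models as negative for the estrogen and progesterone receptors. Ly6a, which is also a surface antigen of stem and stromal cells, was at 54.9 and 224 CPM against 4.65 and 2.04 CPM (log2 fold change 5.39, SE 0.87, adjusted p = 0.0160). Without Neu replicate A, 2 of the 11 rose, and 0 without Neu replicate B.

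Wnt pathway genes rose in 14 of 29 cases and fell in none (median log2 fold change 2.37). The ligands Wnt6 (16.4 and 30.8 CPM in BRCA1-null, 0.0911 and 0.102 CPM in Neu, 7.85) and Wnt10a (7.29 and 87.8 against 0.410 and 0.271 CPM, 7.13), the receptors Fzd1 (2.76) and Fzd7 (2.11), the transcription factor Tcf7 (35.8 and 9.05 against 0.729 and 0.712 CPM, 4.93) and the secreted modulator Dkk3 (10.1 and 20.5 against 0.0911 and 0.0339 CPM, adjusted p = 0.00707) were among them. Axin2, a target of canonical signaling, was at 5.58 and 1.57 CPM against 0 and 0.0339 CPM (adjusted p = 0.0184). Wif1, an inhibitor that binds Wnt ligands, was at 304 and 6.62 CPM against 1.09 and 0.407 CPM (log2 fold change 7.71, SE 1.93, adjusted p = 0.0404), almost all of it in BRCA1-null replicate A. Lef1 (18.1 and 0.615 against 2.28 and 5.7 CPM) and Lrp6 (34.9 and 42.2 against 41.4 and 34.1 CPM) did not pass. In the Notch pathway, 5 of 15 genes rose and 1 fell. The ligands Jag1 (15.7 and 16.8 against 0.365 and 0.509 CPM, 5.19) and Jag2 (5.58 and 10.2 against 0.0456 and 0.102 CPM, 6.60) rose with Heyl, Nrarp and Lfng, whereas the target Hey1 fell (8.06 and 8.81 against 87.6 and 65.2 CPM, log2 fold change -3.17, SE 0.35, adjusted p = 0.00798). The receptors Notch1 (23.7 and 47.4 against 14.3 and 16.8 CPM) and Notch2 did not pass. With Neu replicate A left out, 3 Wnt genes and 2 Notch genes rose and 1 Notch gene fell, and none passed without Neu replicate B.

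Glycolysis and hypoxia genes were lower in 6 of 22 cases and higher in 2, and the lower count was 3 on library totals without TMM. Egln3, a prolyl hydroxylase induced by hypoxia, was at 14.6 and 8.2 CPM in BRCA1-null and 168 and 206 CPM in Neu (log2 fold change -4.06, SE 0.43, adjusted p = 0.00762), and Car9, a carbonic anhydrase of the same response, at 1.86 and 2.12 CPM against 29.7 and 25.9 CPM (log2 fold change -3.79, SE 0.39, adjusted p = 0.00745). Bnip3 (-2.0), Eno1 (-1.31), Pkm (-1.34) and Pfkp (-1.25) also fell. Adm (7.44 and 14.8 against 1.87 and 2.07 CPM, 2.51) and the collagen prolyl hydroxylase P4ha1 (34.7 and 42 against 10.7 and 11.4 CPM, 1.80) rose, so members of 1 response moved both ways, and Vegfa (11.6 and 23.9 against 9.21 and 10.6 CPM) did not pass. Of 21 genes of the endoplasmic reticulum, 2 fell, namely Xbp1, which drives the secretory program (97.2 and 111 against 685 and 956 CPM, log2 fold change -2.98, SE 0.35, adjusted p = 0.00860), and Sdf2l1 (19.2 and 18.7 against 106 and 105 CPM, -2.48), a share near that of all genes. Hspa5 overlapped between models (507 and 589 against 643 and 469 CPM). Without BRCA1-null replicate A 4 glycolysis and hypoxia genes rose and 10 fell, and 6 endoplasmic reticulum genes fell, as many as without BRCA1-null replicate B. When Neu replicate A was left out, 2 of the former and 1 of the latter fell, without Neu replicate B none passed, and DESeq2 called 8 endoplasmic reticulum genes lower.

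In the immune and stress lists most members did not pass, with 13.1% of all genes tested higher and 8.99% lower. Of 13 MHC class I genes 2 fell, H2-T23 (55.7 and 55.3 CPM in BRCA1-null, 292 and 241 CPM in Neu, -2.26) and H2-Q7 (32.7 and 31.9 against 116 and 79.6 CPM, -1.60), and reads of H2 genes can be shared with near-identical copies. B2m was at 1032 and 1829 CPM against 3928 and 2452 CPM (adjusted p = 0.119). Of 21 interferon response genes 4 rose and 1 fell. Cxcl10, a chemokine, was at 87.8 and 94.9 CPM against 1.18 and 0.475 CPM (log2 fold change 6.80, SE 0.57, adjusted p = 0.00677). Isg15 (119.7 and 218 against 36.6 and 21.7 CPM, 2.53), Bst2 (1.28) and Ifit2 (2.55) rose as well, whereas Ifi27 fell (150.1 and 295 against 943 and 762 CPM, -1.94). Of 19 immediate early genes 5 rose, namely Fosl1 (2.91), Egr2 (33.5 and 22.5 against 1.28 and 0.237 CPM, 5.23), Egr3 (3.22), Klf4 (3.91) and Myc (56.9 and 76.3 against 29.7 and 27 CPM, 1.23), and Fos (196 and 927 against 747 and 285 CPM) did not pass. Tissue dissociation is known to induce such genes, and its part was not tested. Of immediate early genes, 12 rose without BRCA1-null replicate A, 3 without BRCA1-null replicate B, 1 without Neu replicate A and 8 in DESeq2. Of the other two lists, 1 interferon response gene and 0 MHC class I genes passed without Neu replicate A, DESeq2 called 4 MHC class I genes lower, and without Neu replicate B no gene of the 3 lists passed.

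**Figure D4:**
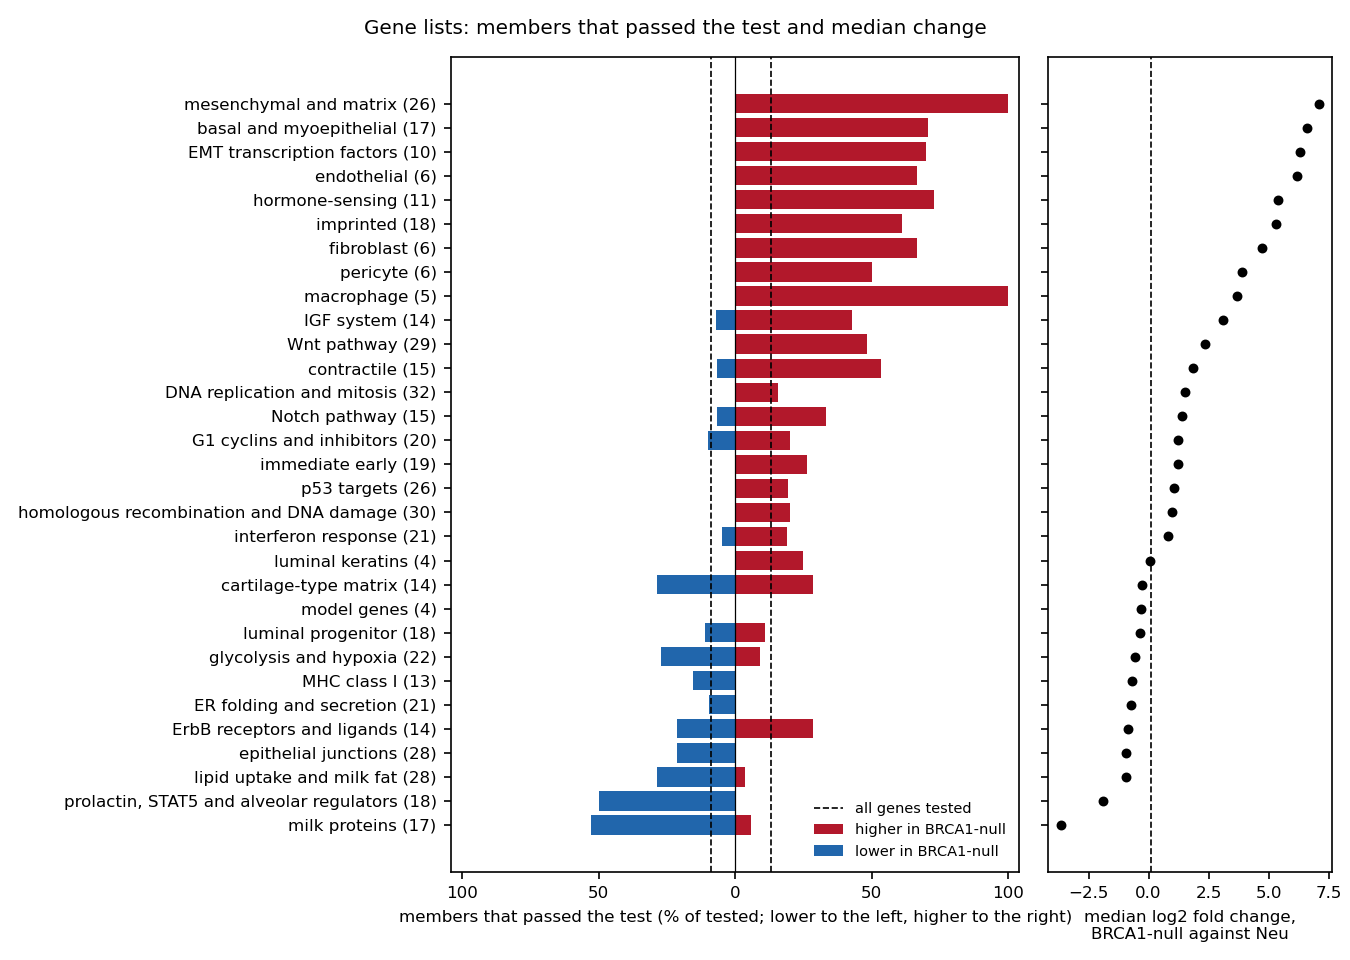
Bars give, for each gene list with at least 4 genes tested (number in parentheses), the percentage of members that passed the test as higher (right, red) or lower (left, blue) in BRCA1-null, and points the median log2 fold change of the list, with dashed lines at the values of all genes tested. Mesenchymal, basal and EMT lists lie at the top and milk protein and alveolar lists at the bottom, while the DNA replication list lies near the dashed line in its share of higher genes and the endoplasmic reticulum list in its share of lower genes.

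Cartilage-type matrix genes split between the models, with 4 of 14 higher and 4 lower. Comp, a matrix protein of cartilage, was at 0.620 and 1.47 CPM in BRCA1-null and 157 and 159.8 CPM in Neu (log2 fold change -7.10, SE 0.51, adjusted p = 0.00640). Col9a1, a collagen of cartilage fibrils, was at 80.6 and 44.2 CPM against 1175 and 536 CPM (log2 fold change -3.78, SE 0.57, adjusted p = 0.0136), and Col9a2 (-2.16) and Chad (0.465 and 5.12 against 82.4 and 97.7 CPM, -4.87) fell with it. Col2a1, the main cartilage collagen, was at 8.68 and 66.9 CPM against 0 and 0.0679 CPM (adjusted p = 0.0147). Acan had no UMI in Neu and was at 1.55 and 7.21 CPM, at least 36.7-fold. The matrilins Matn4 (32.4 and 33.9 against 0.592 and 0.407 CPM, 6.05) and Matn2 (43 and 14.3 against 1.05 and 0.509 CPM, 5.2) rose. Each model thus carried some genes of this tissue type, and Sox9, which activates them in cartilage, overlapped between models (45.1 and 118 against 108 and 128 CPM, adjusted p = 0.475). Without BRCA1-null replicate A, 8 rose and 4 fell, without Neu replicate A 2 and 2, and none passed without Neu replicate B.

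Several of the largest changes lay outside these lists. Ptn, the heparin-binding growth factor pleiotrophin, was at 2309 and 589 CPM in BRCA1-null and 6.24 and 2.0 CPM in Neu (log2 fold change 8.46, SE 1.08, adjusted p = 0.0100). Crabp1, a retinoic acid binding protein, was at 42.3 and 64.5 CPM against 0.0911 and 0.204 CPM (log2 fold change 8.4, SE 0.59, adjusted p = 0.00640), and Cxcl14, a chemokine of epithelia and stroma, at 121 and 213 CPM against 0.592 and 0.441 CPM (log2 fold change 8.34, SE 0.54, adjusted p = 0.00640). Krt6a was at 16.4 and 114 CPM against 0 and 0.339 CPM (8.42), and reads of type II keratins can be shared with near copies. All 4 were far lower in both Neu tumors. Among the decreases, the secreted carbonic anhydrase Car6 was at 6.36 and 12.9 CPM against 663 and 3215 CPM (log2 fold change -7.63, SE 1.02, adjusted p = 0.0110), the secretoglobin Scgb2b27, of a family of near copies, at 2.17 and 10.7 CPM against 622 and 3373 CPM (log2 fold change -8.22, SE 1.30, adjusted p = 0.0155), and Prol1 at 0.310 and 0.376 CPM against 6.38 and 94.7 CPM (-7.13). These 3 were also several times higher in Neu replicate B than in Neu replicate A. Tesc, which encodes the calcium-binding protein tescalcin (3.88 and 2.01 against 419 and 532 CPM, -7.39), Duox1, a dual oxidase that makes hydrogen peroxide (0.775 and 1.71 against 128 and 247 CPM, -7.12), and the uncharacterized Gm48882 (0.620 and 0.376 against 121 and 92.8 CPM, -7.88) differed less within Neu. Malat1, an abundant nuclear RNA, did not differ beyond the spread (10041 and 16180.0 against 11780.3 and 10013 CPM, adjusted p = 0.673).

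The 2 BRCA1-null tumors differed from each other more than the 2 Neu tumors. More than 4-fold differences in CPM + 1 were seen for 582 genes (4.25% of those tested) between the BRCA1-null replicates and for 66 genes (0.482%) between the Neu replicates. Among genes that passed the test at 50 CPM or more in 1 BRCA1-null library, those that differed most between the 2 tumors included Hp, Wif1, Krt14, Ly6k and Fam180a. Hp, which encodes haptoglobin, was at 6.67 and 371 CPM in BRCA1-null and 0.775 and 1.26 CPM in Neu (log2 fold change 7.52, SE 1.90, adjusted p = 0.0413). Ly6k was at 4.34 and 171 against 0.0456 and 0.611 CPM and Fam180a at 1.24 and 55.7 against 0 and 0.136 CPM. These were high in replicate B and low, though above Neu, in replicate A. Wif1 was the reverse, and was found in 29.7% (95% interval 23.8 to 36.2) of cells of replicate A and 1.16% (95% interval 0.727 to 1.75) of replicate B. Cldn6 was at 0.620 and 98.7 CPM in BRCA1-null and 0 and 0.204 CPM in Neu, almost absent from replicate A. With 1 tumor per replicate and 1 sequencing batch per letter, tumor and batch cannot be told apart in these differences.

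**Figure D5:**
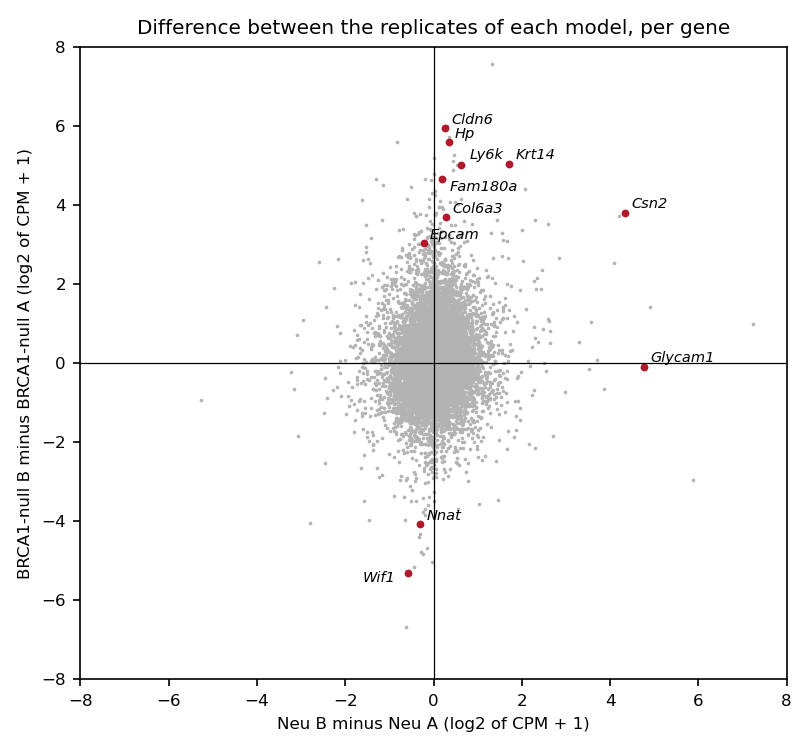
Each point is a gene, placed by the difference in log2 of CPM + 1 between replicates B and A of Neu (x axis) and of BRCA1-null (y axis), with labelled genes in red. The cloud is taller than it is wide, Hp, Ly6k, Krt14 and Cldn6 lie at the top, Wif1 and Nnat at the bottom, and Csn2 and Glycam1 differ between the Neu replicates.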

How the data were processed

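Sorted cells of 2 BRCA1-null and 2 Neu tumors were analyzed. The deposited values are UMI counts by gene and barcode. The authors obtained them with Cell Ranger against mm10 (version 2.2.0 for replicates A and 3.0.2 for replicates B in the submitters' notes, 3.0.2 in every matrix header). Cell filters, at 1000 UMIs, 500 genes and 20% mitochondrial UMIs of 13 genes, left 6628 cells. The 4 sums entered the quasi-likelihood test of edgeR 4.0.16 after TMM scaling and filterByExpr, in R 4.3.3. Tumor model was the term, with 2 residual degrees of freedom, and DESeq2 1.42.0 was an alternative. The fit was also run on counts simulated from its own means, with the dispersion of each gene capped. The replicate letter is the sequencing batch in the methods of the study and so pairs the libraries. Deviations of B from A correlated at r = 0.108 between models. Members and lists were chosen with earlier results of these data known. Of 541 list symbols, 536 matched. Genes named are those of the models, the 10 largest changes per direction at 50 CPM or more without overlap, up to 3 per list by smallest p, those the study names and the 6 that differ most between BRCA1-null replicates, and further list members were chosen after their values were seen. A few results under this rule are not reported here. CPM use TMM-scaled totals, log2 ratios CPM + 1, and bounds 3 counts per library. Library totals set the level of 1 UMI at 0.0339 to 0.155 CPM. Positions are from GENCODE M21 (GRCm38). Other settings are in the closing section.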

Additional observations from a re-analysis of the deposited data

How the results depend on the processing

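Most of 15 alternative settings left counts within 1.5 times. Among them were DESeq2, its size factors, library totals without TMM, other cell filters and cells with keratin or Epcam UMIs. Removal of cells with the most UMIs and libraries thinned to 5578911 UMIs were others. These gave 1319 to 2382 genes higher and 964 to 1716 lower. The replicate block and the fit without BRCA1-null replicate B also stayed within that limit. Without a filter on low counts 3004 were higher and 2021 lower, with 19899 genes tested. With each library left out in turn, counts ran from 0 to 2716 higher and from 0 to 1899 lower, and the lone library was assumed to vary like the pair. The cause of the drop without a Neu library was not tested. With the replicate block, 1663 were higher and 1230 lower, 1521 and 1085 of them shared with the fit without it, and of 134 named genes tested Bard1 and Ptprc alone lost their call. Without Neu replicate A 44 and without Neu replicate B 110 of the 134 lost it, and no called gene of the 134 changed direction in any setting. Library totals without TMM moved the median log2 fold change of all genes from 0.10 to 0.30. Genes under a few CPM rest on few UMIs in BRCA1-null replicate A.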

Other observations

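Genes of single chromosomes had unlike medians. Over the 673 genes tested on chromosome 6 the median log2 fold change was 0.52, and 19.3% were higher and 4.90% lower in BRCA1-null, against 13.1% and 8.99% over all genes. The medians within the A and B libraries were 0.38 and 0.49. Over the 413 genes tested on chromosome 16 the median was -0.45, with -0.54 and -0.28 in the A and B libraries, and 8.72% were higher and 12.1% lower. Chromosome 1 (median 0.39) and chromosome 5 (0.35) followed chromosome 6, and chromosome 12 had a median of -0.19, with -0.46 in the A and 0.04 in the B libraries. DNA copy number was not measured here. Chromosome 6 holds Ccnd2, Ptn and Mest, and chromosome 5 holds the casein cluster, so the share of higher genes on a chromosome and its largest changes need not have the same sign.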
